A study of Mus musculus with 8 samples.

Results

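Expression of 10 immediate early genes was examined in sorted growth plate cells: *Fos*, *Fosb*, *Fosl1*, *Jun*, *Junb*, *Jund*, *Egr1*, *Atf3*, *Ier2*, and *Dusp1*. They were chosen by name from the 16536 genes of the deposited count table, and all 10 were detected in every mouse. The comparison asked whether their RNA differed between mice treated with a Hedgehog (Hh) pathway agonist and mice given vehicle, and whether they varied together from mouse to mouse. Cells were taken from Pthrp-mCherry mice, in which the fluorescent protein mCherry is driven by the locus of *Pthlh*, the gene of parathyroid hormone-related protein, and were sorted as mCherry+ and CD73+ from the growth plate region of both femurs of each mouse. In the SAG group, 4 mice received the Smoothened agonist SAG by daily i.p. injection of 25 μg per g body weight, and in the DMSO group 4 mice received dimethyl sulfoxide, its vehicle. Injections ran from P30 to P36 according to the deposited design and from P31 to P37 according to the methods, and all mice were sacrificed at P38. All 8 mice carried the reporter and no other allele is named. The tissue was digested with collagenase at warm temperature and the cells were antibody-stained and sorted before lysis, in both groups. The part of these steps in the levels below was not tested.

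Immediate early genes are transcribed within minutes of a stimulus without new protein synthesis, through factors such as CREB and SRF that are already present in the cell. The Fos proteins (FOS, FOSB, and FOSL1) pair with the Jun proteins (JUN, JUNB, and JUND) to form the transcription factor AP-1. EGR1 and ATF3 are further DNA-binding factors of the early response, IER2 is a nuclear regulator, and DUSP1 is a phosphatase that switches off MAP kinases. In cartilage, AP-1 factors are known to regulate chondrocyte proliferation and matrix-degrading enzymes.

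The promoter windows of several of these genes hold sequences of the kind bound by CREB and ATF proteins. The windows of 5 members are shown because these genes are compared with each other below. RefSeq promoter windows (GRCm38.p6, from 250 bases before to 50 bases after the start of transcription) were matched for 7 of the 10 members by symbol. The window matched for *Jund*, which is counted among the 7, ends at 70697788 on chromosome 8. The annotated gene starts at 70698949, so this window does not cover that start. The windows of *Dusp1* and *Atf3* do not cover the outermost starts of their annotated genes either, at 26562128 and 191218039 on the minus strand. All distances below are counted from the start used by the RefSeq window, which can differ from the annotated one, as for *Junb*. The 150 bases before the start are printed 5′ to 3′ on the transcribed strand for *Fos* (chr12:85473740-85473889, plus strand), *Fosb* (chr7:19310046-19310195, minus strand), *Jun* (chr4:95052223-95052372, minus strand), *Junb* (chr8:84978749-84978898, minus strand), and *Dusp1* (chr17:26508473-26508622, minus strand). Capitals mark TGACG, the half-site of the cyclic AMP response element, and the full palindrome-like sequences TGACNTCA, on either strand.
Fos: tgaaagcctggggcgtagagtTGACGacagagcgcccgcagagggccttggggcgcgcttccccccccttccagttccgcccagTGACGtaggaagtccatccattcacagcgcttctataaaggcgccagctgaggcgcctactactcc
Fosb: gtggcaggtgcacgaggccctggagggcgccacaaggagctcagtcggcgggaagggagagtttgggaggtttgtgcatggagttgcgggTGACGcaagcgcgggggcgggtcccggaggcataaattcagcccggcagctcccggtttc
Jun: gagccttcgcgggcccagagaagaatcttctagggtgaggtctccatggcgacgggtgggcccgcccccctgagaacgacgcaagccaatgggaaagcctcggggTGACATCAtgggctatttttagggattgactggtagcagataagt
Junb: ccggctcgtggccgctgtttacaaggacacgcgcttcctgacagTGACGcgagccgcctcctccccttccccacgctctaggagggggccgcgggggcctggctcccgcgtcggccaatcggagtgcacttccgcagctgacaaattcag
Dusp1: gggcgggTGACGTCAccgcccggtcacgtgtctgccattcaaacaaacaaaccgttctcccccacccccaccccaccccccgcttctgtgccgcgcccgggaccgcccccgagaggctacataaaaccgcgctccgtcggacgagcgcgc
TGACG was present in the windows of 5 of the 7 members, namely *Fos*, *Fosb*, *Junb*, *Atf3*, and *Dusp1*, and in 20.8% of all 32851 windows on either strand. In *Fos* it began 129 and 66 bases before the start, in *Fosb* 60, and in *Junb* 106 bases before it. *Dusp1* was the member with the full element TGACGTCA, which contains TGACG on both strands and began 143 bases before the start, against 1.79% of all windows. TGACATCA of *Jun* began 45 bases before the start. The motif TGACNTCA, which includes TGACGTCA, was present in 8.83% of all windows. TGANTCA, the classical AP-1 sequence, was in 0 of the 7 member windows and in 7.81% of all windows. The CArG box, the sequence for SRF, was in 0 of the 7 and in 1.63% of all windows. The ETS core CCGGAA was in 0 of the 7 and in 14.9% of all windows. These matches are descriptions of letters in the window only.

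The 8 libraries held between 24971992 and 46593090 counts on genes, so that 3 counts corresponded to between 0.0644 and 0.12 CPM, a gene's count relative to the TMM-scaled size of its library, and this limit covers counting error only. The member with the fewest counts, *Fosl1*, had between 477 and 5201, and the other members had at least 3160 counts in every mouse. DMSO replicate 4 was the shallowest library and had the fewest genes detected, 14416 against 15524 to 16285 in the others. The sort gene *Nt5e*, which encodes CD73, was measured at 228 ± 47.8 CPM (SD, n = 4) in the DMSO group and 159 ± 12.5 CPM (SD, n = 4) in the SAG group. Every SAG-treated mouse was below every DMSO-treated mouse, as in 3.84% of the tested genes (log2 fold change -0.51, edgeR unadjusted p = 0.0178, adjusted p = 0.186). *Pthlh* was at 18.5 ± 3.15 CPM (SD, n = 4) in the DMSO group and 23.8 ± 4.78 CPM (SD, n = 4) in the SAG group, with overlap (log2 fold change 0.37, edgeR adjusted p = 0.606). All 12 chondrocyte marker genes were detected in every mouse. RNA of other cells was present too: the summed level of 12 neutrophil markers was between 4987 and 14762 CPM in the DMSO group and between 28334 and 45085 CPM in the SAG group, and 10 of the 12 were higher in SAG-treated mice (edgeR, Benjamini-Hochberg adjusted p under 0.05). Of 8 tested B lineage markers 3 were lower (6 by DESeq2, and all 8 without adjustment), and of 8 monocyte and macrophage markers 1 was higher, and 0 of the tested T and NK, erythroid, megakaryocyte, endothelial, and osteoblast markers were called by edgeR, although 2 osteoblast markers were lower without adjustment and by DESeq2 and 1 T and NK marker passed in each direction without adjustment. In bulk samples, fewer cells of a type and less RNA per cell cannot be told apart.

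None of the 10 immediate early genes passed the test for a difference between SAG- and DMSO-treated mice. In edgeR's quasi-likelihood test with Benjamini-Hochberg adjustment over 15421 genes, 0 of the 10 were higher and 0 were lower, where 2.62% of all tested genes were higher and 0.266% were lower. At an unadjusted p under 0.05, *Fosl1* was higher and *Egr1* and *Atf3* were lower, against 9.58% and 6.5% of all tested genes. DESeq2 called 0 of the 10 in either direction, against 6.6% of the 12311 genes it gave an adjusted p for in the higher and 3.35% in the lower direction. The median log2 fold change of the members was -0.2, against -0.08 over all tested genes, and 7 of the 10 lay below 0, as did 54.8% of all tested genes. This direction turned with marker scores as covariates: the median was 0.56 with the neutrophil score, where those 7 lay above 0, and 0.41 with the chondrocyte score, a covariate chosen after the data had been seen, where 6 of them did, and 0 members were called in either fit. The groups overlapped in every member, whereas all 4 SAG-treated mice were above all 4 DMSO-treated mice in 7.9% of the tested genes and below them in 3.84%. Together the members took 1.39%, 1.13%, 1.04%, and 0.724% of the counts in DMSO replicates 1 to 4 and 0.992%, 0.531%, 0.827%, and 0.896% in SAG replicates 1 to 4.

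**Figure D1:**
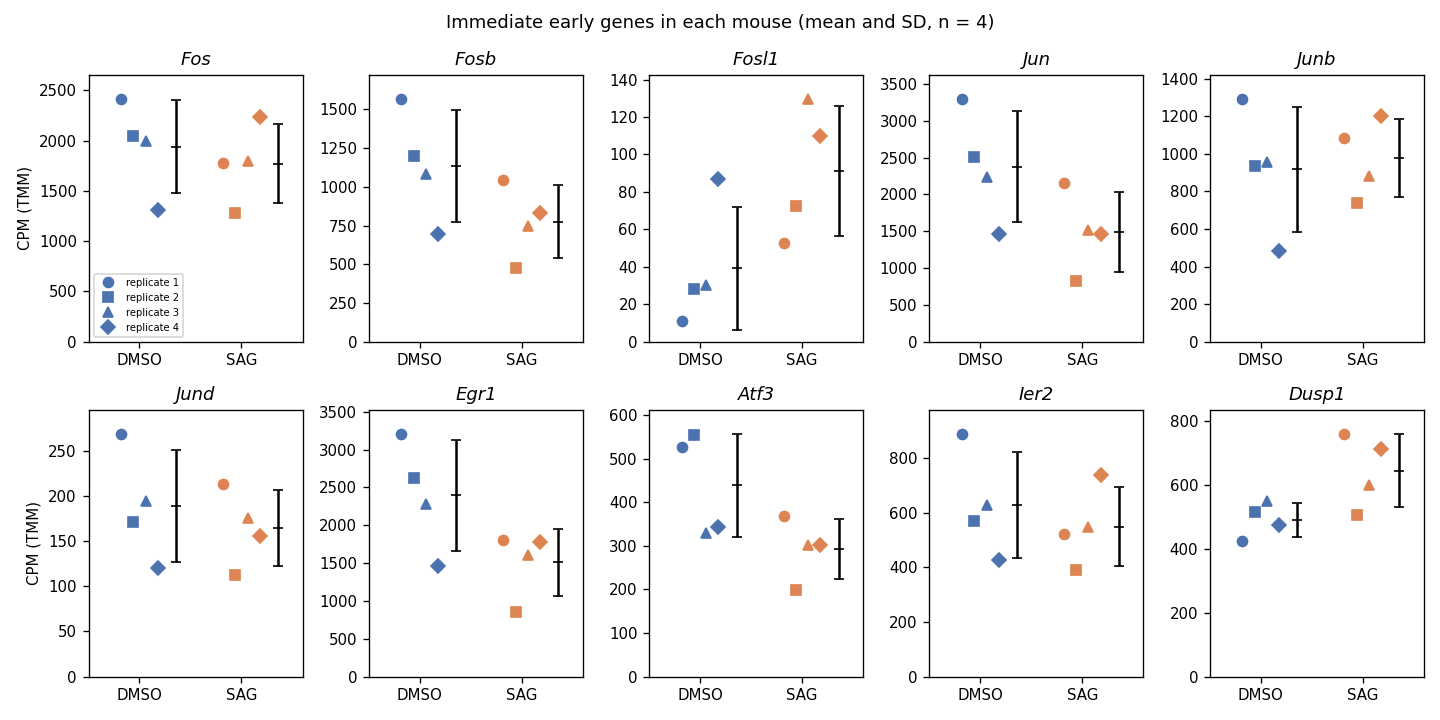
Level of each immediate early gene (y axis, CPM scaled by TMM, linear from 0) in the 4 DMSO-treated (blue) and 4 SAG-treated (orange) mice, with the symbol giving the replicate number and the bar giving the mean and SD (n = 4). In every panel the 2 groups overlap, DMSO replicate 4 is the lowest DMSO-treated mouse for 7 of the 10 genes, and SAG replicate 2 is the lowest SAG-treated mouse for 9.

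Among the Fos genes, *Fos* was the most abundant. It lies on chromosome 12 from 85473890 to 85477273 (GRCm38, plus strand), and its level was 2412, 2045, 1994, and 1311 CPM in DMSO replicates 1 to 4 and 1775, 1276, 1798, and 2236 CPM in SAG replicates 1 to 4. The highest SAG-treated mouse stood above 3 of the 4 DMSO-treated mice, and the log2 fold change was -0.13 (95% interval -0.59 to 0.33, edgeR adjusted p = 0.86). *Fosb*, on chromosome 7 from 19302696 to 19310051, was measured at 1566, 1201, 1082, and 693 CPM in the DMSO group and 1046, 475, 745, and 830 CPM in the SAG group. DMSO replicate 4 was here below 3 of the SAG-treated mice, and the log2 fold change was -0.55 (95% interval -1.11 to 0.00, edgeR adjusted p = 0.385).

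*Fosl1*, the gene of FRA1, was the least abundant member and had the highest log2 fold change, 1 of 3 members above 0 with *Dusp1* and *Junb*. It lies on chromosome 19 from 5447547 to 5455946 and was measured at 11.1, 28.3, 30.5, and 86.7 CPM in DMSO replicates 1 to 4 and at 52.9, 72.2, 130, and 110 CPM in SAG replicates 1 to 4. Except for DMSO replicate 4, every DMSO-treated mouse lay below every SAG-treated mouse. The log2 fold change was 1.22 (standard error 0.52, 95% interval 0.21 to 2.23) and did not pass the threshold (edgeR adjusted p = 0.264, exact permutation p = 0.0857, 2-sided). Without DMSO replicate 4 it was 2 with an adjusted p of 0.00956 from edgeR, so the absence of a call in the main fit depended on that library. With all mice, limma voom, which gives libraries weights by their quality, gave 1.97 with an adjusted p of 0.0111. The weights themselves were not examined. The exons of *Fosl1* share 1163 bases with those of *Ccdc85b* on the opposite strand. The strand setting of the counting is not given in the sources used here, and *Ccdc85b* itself had a log2 fold change of 0.2 (edgeR adjusted p = 0.825).

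Of the Jun genes, *Jun* had the lowest log2 fold change and *Junb* one close to 0. *Jun*, on chromosome 4 from 95049034 to 95052222, was measured at 3293, 2503, 2233, and 1465 CPM in the DMSO group and 2160, 822, 1520, and 1461 CPM in the SAG group. DMSO replicates 1 to 3 stood above every SAG-treated mouse and DMSO replicate 4 did not. Its log2 fold change was -0.67 (95% interval -1.28 to -0.07 by a normal approximation, edgeR unadjusted p = 0.0515, adjusted p = 0.317). *Junb*, on chromosome 8 from 84974484 to 84978718, was at 1291, 934, 959, and 483 CPM in the DMSO group and 1086, 739, 884, and 1202 CPM in the SAG group. The SAG-treated mice fell inside the range of the DMSO-treated mice, with a log2 fold change of 0.09 (95% interval -0.45 to 0.64, edgeR adjusted p = 0.921). The sign for *Junb* turned below 0 with limma voom and in fits without DMSO replicate 4 or SAG replicate 4. *Jund*, a family member that is usually expressed without a stimulus, lies on chromosome 8 from 70698949 to 70700616 and was measured between 120 and 269 CPM in the DMSO group and between 112 and 213 CPM in the SAG group, a log2 fold change of -0.2 (95% interval -0.72 to 0.32, edgeR adjusted p = 0.791).

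*Egr1* encodes a zinc finger factor. It was measured at 3208, 2630, 2288, and 1458 CPM in DMSO replicates 1 to 4 and at 1808, 855, 1608, and 1773 CPM in SAG replicates 1 to 4. As with *Jun*, DMSO replicates 1 to 3 were above every SAG-treated mouse and DMSO replicate 4 lay among them. The log2 fold change of *Egr1* was -0.67 (95% interval -1.23 to -0.1, edgeR adjusted p = 0.28, exact permutation p = 0.114, 2-sided). *Atf3*, a stress-induced partner of the Jun proteins on chromosome 1 from 191170296 to 191218039, was at 528, 555, 330, and 344 CPM in the DMSO group and 369, 200, 302, and 302 CPM in the SAG group. SAG replicate 1 was the only SAG-treated mouse above the lowest DMSO-treated mice, and the log2 fold change was -0.58 (95% interval -1.06 to -0.11, edgeR adjusted p = 0.256, exact permutation p = 0.0857, 2-sided). *Ier2*, on chromosome 8 from 84661331 to 84662852, was measured at 890, 570, 628, and 429 CPM against 523, 390, 548, and 738 CPM, with wide overlap and a log2 fold change of -0.2 (95% interval -0.69 to 0.3, edgeR adjusted p = 0.791).

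*Dusp1*, the phosphatase gene, was the member with the least spread among DMSO-treated mice. It lies on chromosome 17 from 26505590 to 26562128 and was measured at 423, 514, 550, and 475 CPM in DMSO replicates 1 to 4 and at 760, 507, 600, and 714 CPM in SAG replicates 1 to 4. All SAG-treated mice except replicate 2 were above every DMSO-treated mouse. The log2 fold change was 0.4 (95% interval 0.04 to 0.75 by a normal approximation, edgeR unadjusted p = 0.0524, adjusted p = 0.32, exact permutation p = 0.0857, 2-sided).

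**Figure D2:**
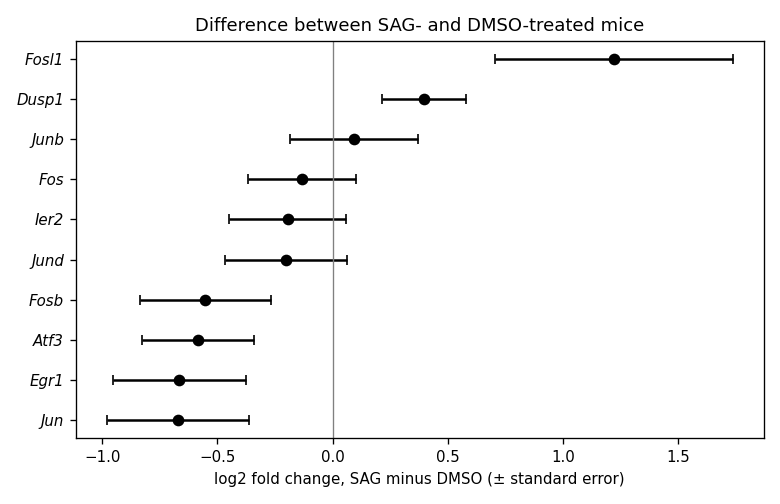
Log2 fold change of each immediate early gene between SAG- and DMSO-treated mice (x axis, SAG minus DMSO, positive where SAG was higher), with bars for the standard error of the edgeR fit (4 mice per group). *Fosl1* at 1.22 and *Jun* at -0.67 are at the ends, and 0 of the 10 passed an adjusted p of 0.05.

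Levels were compared between members after division by the length of their annotated exons (RPKM, that is CPM per 1000 bases of exon), averaged over all 8 mice. The lengths count every exon base of any annotated transcript of the gene, and the order between genes depends on this choice. *Fos* led with 789 RPKM, followed by *Jun* with 606, *Egr1* with 436, *Junb* with 412, and *Ier2* with 387. Next came *Dusp1* with 172, *Atf3* with 170, *Fosb* with 153, *Jund* with 106, and *Fosl1* with 32 RPKM. Part of this order differed between the groups. *Egr1* was above *Junb* in all 4 DMSO-treated mice (534 ± 163 against 398 ± 144 RPKM, SD, n = 4) and in 0 of the 4 SAG-treated mice (337 ± 99.4 against 425 ± 89.7 RPKM, SD, n = 4). The ratio of 2 genes did not overlap between the groups in 24.5% of all pairs of tested genes at least as abundant as the lowest member. The order is given as a description, with no test. *Dusp1* was above *Atf3* in 1 of the DMSO-treated and in 4 of the SAG-treated mice, while *Junb* was above *Ier2* and *Atf3* above *Fosb* in 2 of the DMSO-treated and 4 of the SAG-treated mice. By contrast, *Jun* was above *Egr1*, *Ier2* above *Dusp1*, *Fosb* above *Jund*, and *Jund* above *Fosl1* in 8 of 8 mice. *Fos* was above *Jun* in 7 of the 8 mice.

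The shares of *Jun* and *Junb* in the Jun family did not overlap between the groups, as was the case for the ratio of 2 genes in 24.5% of the 4747821 pairs of tested genes at least as abundant as the lowest member. As a share of the summed RPKM of *Jun*, *Junb*, and *Jund*, *Jun* made up 58.8%, 60.7%, 56.8%, and 62% in DMSO replicates 1 to 4 and 53%, 39.9%, 49.4%, and 42.7% in SAG replicates 1 to 4. *Junb* made up 32%, 31.4%, 33.8%, and 28.3% in the DMSO group and 37%, 49.7%, 39.8%, and 48.7% in the SAG group. Thus *Jun* was below and *Junb* above the DMSO range in all 4 SAG-treated mice, including against DMSO replicate 4, while *Jund* made up between 7.95% and 10.9% in both groups with overlap. These shares were computed after the values of the genes had been seen and are given as a description, with no test. The summed chondrocyte and neutrophil markers also moved with treatment in these mice, by the values given for each list, and their part in the shares was not tested. In the Fos family, counting *Fosl2*, the share of *Fos* was 76.8% ± 2.45 (SD, n = 4) in the DMSO group and 76.1% ± 2.18 (SD, n = 4) in the SAG group, with overlap of the groups.

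**Figure D3:**
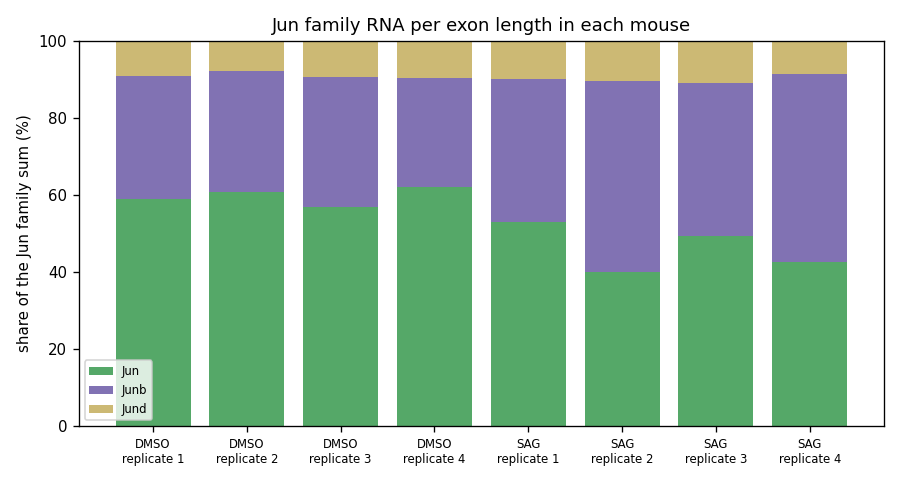
Share of each Jun gene in the summed RPKM of the family (y axis, percent, from 0 to 100) in each of the 8 mice. The *Jun* part of the bars ends between 56.8% and 62% in the DMSO-treated mice and between 39.9% and 53% in the SAG-treated mice.

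Most members varied together from mouse to mouse within the groups. Among DMSO-treated mice, replicate 1 was highest and replicate 4 lowest for the same 7 genes, *Fos*, *Fosb*, *Jun*, *Junb*, *Jund*, *Egr1*, and *Ier2*. Among SAG-treated mice, replicate 2 was lowest for 9 of the 10, all but *Fosl1*, and replicate 1 was highest for 6. The SD of log2 CPM within a group had a median over the members of 0.48 in the DMSO group and 0.38 in the SAG group. It was 0.33 and 0.26 over the 3082 tested genes at least as abundant as the lowest member, and 0.68 and 0.47 over all tested genes, so the members were more variable between mice than the median gene of that abundance and less variable than the median of all genes.

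Pearson's r of log2 CPM over the 8 mice, after the mean of each group was subtracted, had a median of 0.78 over the 45 pairs of members and was above 0 in 37 of them. An exact permutation test within groups, whose smallest possible p is 0.00174, gave an adjusted p under 0.05 in 12 of the 45 pairs. The share of pairs of other genes that correlate as closely is not given here, so these counts do not set the members apart from other genes. The closest pair was *Fosb* and *Jun* (r = 0.99, exact permutation p = 0.00347, adjusted p = 0.0456; rho = 0.88, exact permutation p = 0.0104, adjusted p = 0.134; r = 0.95 without the 2 mice farthest from the median of *Fosb*). *Fos* and *Ier2* had an r of 0.95 (exact permutation p = 0.0122, adjusted p = 0.0456) and a rho of 0.83 (exact permutation p = 0.0208, adjusted p = 0.134), with an r of 0.94 without the 2 farthest mice. *Fos* and *Junb* had an r of 0.94 (exact permutation p = 0.00694, adjusted p = 0.0456) and a rho of 0.81 (exact permutation p = 0.0312, adjusted p = 0.156), with an r of 0.81 without the 2 farthest mice. Over all 45 pairs, leaving out the 2 farthest mice took the median r to 0.48 and the pairs at 0.7 or more from 25 to 12, and over the 9 pairs with *Fos* the median was then 0.13. *Fos* and *Jun*, in contrast, had an r of 0.82 (exact permutation p = 0.0399, adjusted p = 0.0817) and a rho of 0.43 (exact permutation p = 0.33, adjusted p = 0.479), and without the 2 farthest mice r was 0.05, so this relation rested on those mice.

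*Fosl1* and *Dusp1* did not share this pattern. The 28 pairs of the other 8 members had a median r of 0.87 with a lowest value of 0.57. The 9 pairs with *Fosl1* had a median r of -0.55, below 0 for all but *Dusp1*, and reached -0.77 with *Junb* (exact permutation p = 0.0833, adjusted p = 0.139; rho = -0.57, exact permutation p = 0.219, adjusted p = 0.406; r = 0.02 without the 2 farthest mice). The 9 pairs with *Dusp1* lay between 0.11 and 0.48. Against the mean of the other 9 members, r was 0.99 for *Egr1*, 0.96 for *Fosb*, 0.94 for *Jun*, 0.91 for *Fos*, 0.85 for *Jund*, 0.84 for *Junb*, 0.82 for *Ier2*, 0.78 for *Atf3*, 0.45 for *Dusp1*, and -0.6 for *Fosl1*. Over 13883 other genes with a mean count of at least 50, r with the mean of the members had a median of 0.04, and 7.3% of these genes reached 0.8.

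These correlations depended on the measure and on single mice. By Spearman's rho, the median over the 45 pairs was 0.48 and 0 of the 45 pairs passed. Without DMSO replicate 4 the median r was 0.65, without SAG replicate 2 it was 0.68, and with any 1 mouse left out, which leaves fewer arrangements for the exact permutation test, 0 of the 45 pairs passed.

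The variation of the members was compared with that of cartilage RNA, and no single relation passed after adjustment. The 5 genes outside the members whose level was closest to the mean of the members across the 8 mice were *Pkd2*, *Acan*, *Ehbp1*, *Scrg1*, and *Col2a1*, each with an r of 0.99. *Acan* encodes aggrecan and *Col2a1* type II collagen, the main proteoglycan and collagen of cartilage, and *Scrg1* is linked to chondrogenesis. The summed CPM of the 12 chondrocyte markers was 115814, 101885, 88255, and 49171 in DMSO replicates 1 to 4 and 54524, 20125, 47861, and 56091 in SAG replicates 1 to 4. *Col2a1* and *Acan* are among the 12. *Col2a1* alone gave 68832 CPM of the sum in DMSO replicate 1 and 34149 CPM in SAG replicate 4, so the sum mostly follows this gene. DMSO replicate 4 and SAG replicate 2, the mice with the lowest immediate early gene levels in their groups, were also the lowest in this sum within their groups. By edgeR 0 of the 12 markers were called in either direction (median log2 fold change -1.01), 11 were lower at an unadjusted p under 0.05, DESeq2 called 6 lower, and 0 of them were at 0 in any library.

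Pearson's r of the members with the chondrocyte sum, with group means subtracted, had a median of 0.86 and was at least 0.7 for 8 of the 10. It was 0.99 for *Egr1* (rho = 0.98, exact permutation p = 0.00347, adjusted p = 0.0893; p of rho 0.00521, adjusted 0.156), with an r of 0.94 without the 2 farthest mice. Without the 2 farthest mice r was 0.78 for *Fosb*, 0.73 for *Atf3*, 0.66 for *Fos*, 0.65 for *Jun* and *Junb*, 0.62 for *Ier2*, 0.42 for *Jund*, and -0.16 for *Dusp1*. For *Fosl1* it was -0.45 (exact permutation p = 0.252, adjusted p = 0.553; rho = -0.43, exact permutation p = 0.344, adjusted p = 0.74; r = -0.5 without the 2 farthest mice). In all, 90 relations between members and marker sums of 9 cell types were tested and 0 passed after adjustment, while 8 of the 10 with the chondrocyte sum had an unadjusted exact permutation p under 0.05. With the endothelial sum 7 of the 10 had such a p, with the neutrophil sum 4, and with any other sum at most 2. The 1 with the erythroid sum was *Fosl1*, with an r of 0.81 (exact permutation p = 0.0243, adjusted p = 0.122). Its rho was 0.81 (exact permutation p = 0.0451, adjusted p = 0.254), and r was 0.59 without the 2 farthest mice. The median r was -0.69 with the neutrophil sum and -0.85 with the endothelial sum. Of these 2 and the chondrocyte sum, the endothelial sum is the smallest at between 31.6 and 94.7 CPM. After the chondrocyte sum was regressed out of each member as well, an alternative chosen after the data had been seen, the median r over the 45 pairs was -0.02, with 22 pairs above 0. The sum itself had an r of 0.99 with the mean of the members, group means subtracted. Regressing it out therefore also removes most of what the members share, so a median near 0 follows largely from this step. *Fosb* with *Jun* remained at 0.89 and *Fos* with *Ier2* at 0.86. The number of cells of each type per library was not analysed here.

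**Figure D4:**
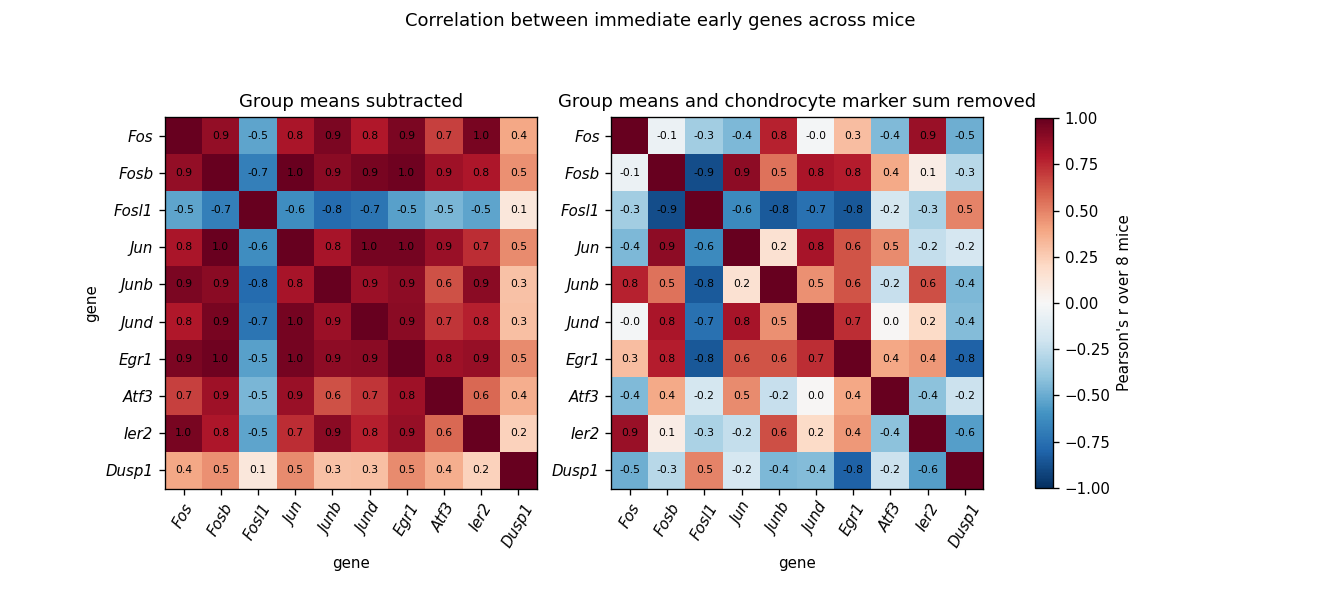
Pearson's r between each pair of immediate early genes over 8 mice (color from -1 to 1, value printed in each cell), with group means subtracted (left) and with the summed chondrocyte markers removed as well (right). On the left 37 of the 45 pairs are above 0 and the *Fosl1* row is mostly below 0, and on the right 22 of the 45 pairs are above 0. The sum removed on the right had an r of 0.99 with the mean of the members.

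**Figure D5:**
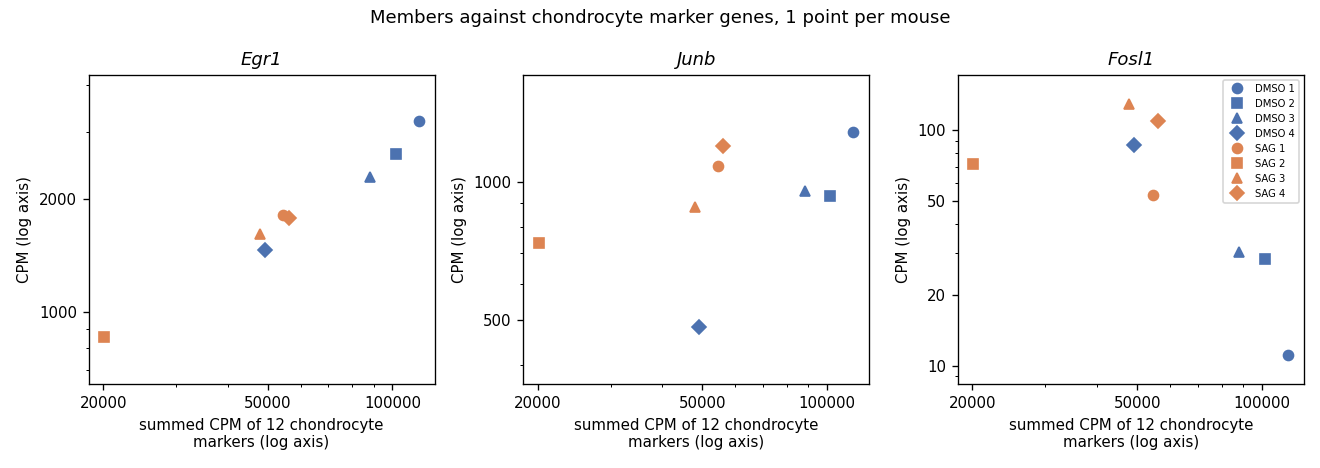
CPM of *Egr1*, *Junb*, and *Fosl1* (y axes, log scale) against the summed CPM of 12 chondrocyte markers (x axis, log scale), with 1 point per mouse, blue for DMSO and orange for SAG. *Egr1* varies with the sum within the groups (r = 0.99 with group means subtracted), for *Junb* SAG replicates 1, 3, and 4 lie above DMSO replicate 4, whose sum is alike, and *Fosl1* is lowest in the 3 mice with the highest sums.

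The members were also expressed relative to the chondrocyte sum. This sum was itself lower in the SAG group, by a log2 difference of -1.03 between the group means, so the ratio moves every gene upward by the same amount, for *Fos* to a log2 difference of 0.9 and for *Jun* to 0.34. *Junb* amounted to 1.11%, 0.917%, 1.09%, and 0.983% of the sum in DMSO replicates 1 to 4 and to 1.99%, 3.67%, 1.85%, and 2.14% in SAG replicates 1 to 4. *Dusp1* amounted to between 0.365% and 0.965% in the DMSO group and between 1.25% and 2.52% in the SAG group, and *Fos* to between 2.01% and 2.67% and between 3.25% and 6.34%. In 7 of the 10 members, all but *Fosl1*, *Jun*, and *Atf3*, every SAG-treated mouse was above every DMSO-treated mouse on this scale, where 21.4% of 13214 genes were. This ratio was computed after the data had been seen, and 0 of the 10 members passed the edgeR test with the chondrocyte score as a covariate (median log2 fold change 0.41).

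Of 6 tested AP-1 and partner genes outside the members, 1 was higher and 0 were lower, against 2.62% and 0.266% of all tested genes, and 2 were higher without overlap, against 7.9%. This was *Jdp2*, a repressor that dimerizes with Jun proteins, measured at 125, 124, 102, and 133 CPM in the DMSO group and 296, 286, 201, and 301 CPM in the SAG group (log2 fold change 1.16, edgeR adjusted p = 0.0112). *Fosl2*, the gene of FRA2, was at 338, 436, 410, and 488 CPM against 542, 757, 569, and 614 CPM, without overlap of the groups, but did not pass (log2 fold change 0.57, edgeR adjusted p = 0.132). Its r with the mean of the members was -0.89, of the sign seen for *Fosl1*. *Atf7* and *Atf2*, CREB-like partners of Jun, had log2 fold changes of -0.25 and 0.04 and were not called.

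Of 37 other immediate early genes tested, 2 were higher and 0 lower, with a median log2 fold change of -0.03. DESeq2 called the same number higher and 2 lower, *Egr2* and *Arc*, and without adjustment 5 passed in each direction. The 2 higher genes by edgeR were *Gadd45a*, a stress-response gene, at 106 ± 16.9 CPM (SD, n = 4) in the DMSO group and 239 ± 58.7 CPM (SD, n = 4) in the SAG group (log2 fold change 1.17, edgeR adjusted p = 0.0174), and *Mcl1*, a survival gene of the BCL2 family, with a log2 fold change of 0.78 (edgeR adjusted p = 0.0267). The most abundant of the list was *Zfp36*, which encodes an RNA-destabilizing protein, with a log2 fold change of -0.11 (edgeR adjusted p = 0.879). *Ccn1* and *Ccn2*, matrix-associated early genes that chondrocytes express, had log2 fold changes of -0.91 and -0.92 (edgeR adjusted p = 0.259 and 0.261). *Ccn1* had an r of 0.96 with the mean of the members, and 8 of the 37 genes reached 0.8.

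Upstream of the members, 1 of 9 tested genes for SRF, its cofactors, and CREB was higher and 0 were lower. This was *Mrtfa*, an actin-regulated coactivator of SRF, at 48.9 CPM in the DMSO and 125 CPM in the SAG group on average (log2 fold change 1.36, edgeR adjusted p = 0.0143). *Srf* itself had a log2 fold change of -0.19 (edgeR adjusted p = 0.8), and *Creb1* and *Elk4* had 0.27 and -0.05 and were not called. Without adjustment 1 of the 9 passed in each direction, and the lowest log2 fold change of the list was -0.74, for *Mrtfb*. Of 17 MAP kinase cascade genes, 2 were higher and 0 lower by edgeR, DESeq2 called 3 higher and 1 lower, *Mapk8*, and without adjustment 8 were higher, against 9.58% of all tested genes, and 1 was lower. *Rps6ka1*, which encodes the kinase RSK1, had a log2 fold change of 1.37 (edgeR adjusted p = 0.0108), and *Map2k1*, which encodes MEK1, had 1.12 (edgeR adjusted p = 0.0329). The median over the 17 genes was 0.5, and *Mapk14*, which encodes the kinase p38α, had 0.88 (adjusted p = 0.054 by edgeR and 0.00881 by DESeq2), with every SAG-treated mouse above the DMSO group. Of 8 other dual-specificity phosphatase genes 0 were called by edgeR (median log2 fold change -0.27), 1 passed in each direction without adjustment, and DESeq2 called 1 lower, *Dusp10*. Among these, *Dusp5*, *Dusp6*, *Dusp16*, and *Dusp7* were the most abundant, and *Dusp6* had the highest log2 fold change, 0.99 (edgeR adjusted p = 0.12).

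Of 11 heat shock genes, which are also induced by cell stress, 0 were called in either direction by edgeR, 0 by DESeq2, and 1 was lower at an unadjusted p under 0.05. Their median log2 fold change was -0.1, and the most abundant, the chaperone genes *Hspa8*, *Hsp90ab1*, *Hsp90aa1*, and *Dnaja1*, had log2 fold changes of 0.13, -0.1, -0.12, and 0.18. Of 11 reported AP-1 target genes, 2 were higher and 0 lower by edgeR, and 3 were higher and 1 lower by DESeq2. *Mmp9*, a matrix metalloproteinase gene that is also on the neutrophil marker list, was at 159, 152, 273, and 323 CPM in the DMSO group and 727, 1314, 934, and 1299 CPM in the SAG group (log2 fold change 2.24, edgeR adjusted p = 0.0102). *Cd44*, a hyaluronan receptor gene, had a log2 fold change of 1.18 (edgeR adjusted p = 0.0116). *Plaur*, the urokinase receptor gene, and *Spp1*, the osteopontin gene, had log2 fold changes of 1.06 and -1.36, and were called by DESeq2 (adjusted p = 0.00846 and 0.0122) but not by edgeR (adjusted p = 0.0543 and 0.107). The neutrophil sum was higher in every SAG-treated mouse, by the values given above, and its part in the calls of these lists was not tested. *Gapdh*, often used as a reference gene, had a log2 fold change of 0.74 (edgeR adjusted p = 0.0403).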

How the data were processed

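Total RNA of sorted mCherry+CD73+ cells from 4 DMSO-treated and 4 SAG-treated mice was sequenced, from 1 stranded library for each mouse. The values deposited by the authors are counts of reads for each gene, unscaled whole numbers. The submitters' processing notes name kallisto, DESeq2, and GRCm38, with no role or version, and neither the rounding nor the strand setting of the counts is given in the sources used here. All 8 libraries were matched by their labels. The labels do not say whether mice share a litter or a day. Gene coordinates and exon lengths were taken from GENCODE release M21 (GRCm38), in which 16524 of the 16536 symbols were found, and promoter sequences from RefSeq (GRCm38.p6).

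Counts were analysed in R 4.3.3. The main fit was edgeR 4.0.16 (filterByExpr, TMM, robust quasi-likelihood test, Benjamini-Hochberg adjustment over 15421 genes, threshold 0.05). DESeq2 1.42.0 and limma 3.58.1 (voom with quality weights) were alternatives, as were other scalings and filters, a replicate block, marker scores as covariates, and each mouse left out in turn. log2 CPM used a prior count of 2. Correlations between genes were taken over 8 mice after subtraction of group means, with exact permutation within groups. Single values were also compared by exact permutation over 70 relabellings. The scripts were tested on simulated data. Pairs of libraries all differed by more than sampling noise.

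The members and gene lists were chosen with earlier results of these data known. Genes named outside the members were, in each list, up to 4 with the highest mean CPM and up to 4 per direction with an adjusted p under 0.05 and the largest fold, the 5 genes most like the mean of the members, and *Gapdh*. *Ccdc85b*, *Pthlh*, and *Nt5e* were added for the overlap and the sort. *Dusp10*, *Egr2*, *Arc*, and *Mapk8* were named after their values were seen, as DESeq2 calls, and so was *Mrtfb*, as the lowest of its list. *Batf2*, *Npas4*, and *Dusp9* of the lists were not tested. Some genes that this rule would name are not reported here.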

Additional observations from a re-analysis of the deposited data

How the results depend on the processing

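Of 170 values of single members under the alternatives, 149 kept their direction and their side of the threshold, 19 turned direction without a call, and 2, both for *Fosl1*, passed the threshold. With limma voom 1 member was higher, *Fosl1* (log2 fold change 1.97), and *Junb* was at -0.0022. Leaving out 1 mouse at a time gave between 0 and 1 members higher, the 1 being *Fosl1* at 2.00 without DMSO replicate 4. In these fits *Junb* was between -0.090 and 0.31, with -0.019 without SAG replicate 4, *Jund* between -0.35 and 0.021, and *Ier2* between -0.37 and 0.022, the lowest *Junb* without DMSO replicate 4 and the highest *Jund* and *Ier2* without DMSO replicate 1. The median log2 fold change of the members was 0.56 with the neutrophil score as a covariate, of whose variance treatment explained 79.7%. Values then were 0.68 for *Fos*, 0.63 for *Fosb*, -0.33 for *Fosl1*, 0.57 for *Jun*, 0.77 for *Jund*, 0.56 for *Egr1*, 0.44 for *Atf3*, and 0.56 for *Ier2*, none called. With the chondrocyte score as a covariate, chosen after the data had been seen and with 47.2% explained by treatment, the median was 0.41, with 0.43 for *Fos*, 0.22 for *Fosb*, 0.14 for *Jun*, 0.45 for *Jund*, 0.14 for *Egr1*, and 0.40 for *Ier2*, none called. The median correlation between members was 0.48 by Spearman's rho (0 pairs called), 0.64 without subtracting group means (21 pairs), between 0.65 and 0.85 with 1 mouse left out (0 pairs each), and -0.022 with the chondrocyte sum regressed out. Pairs called numbered 11 with DESeq2 size factors, 8 with library size alone, and 12 with a prior count of 0.5. The cause of these differences was not tested, beyond the smaller number of mice when 1 is left out. The replicate numbers of the labels name different mice, and same-numbered mice deviated together with r between 0.01 and 0.12. For replicate 1 this r of 0.12 was above its highest r with another number, 0.05, and for the other replicates it was below. These values cannot decide whether same-numbered mice share a litter or a day. With a replicate block 0 members were higher and 0 lower and the median log2 fold change was -0.18. Depth limits *Fosl1* most, with 477 counts in its lowest library.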
